A study of Mus musculus with 4 samples.

Results

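The Hist1h genes are the histone genes of the large cluster on mouse chromosome 13, and they were followed here in single cells of the mouse lung. Members were all genes of the deposited tables whose symbol begins with Hist1h, which gave 54 of 32285 genes. All 54 lie on chromosome 13 of GRCm38 (the build mm10) between positions 21715763 and 23934851, in a block of 23 members that ends at 22043676 and a block of 31 that starts at 23531050. The study holds 4 libraries of lung cells from wild-type male C57BL/6 mice aged 6 to 7 weeks, 1 library per group, and the number of mice in a library is not given. In the PBS group 100 µL of phosphate-buffered saline was put into the trachea, and the lungs were taken 48 hours later. The PBS+RT group also received 1 Gy of X-rays to the thorax 24 hours before the lungs were taken. The LPS group received 200 µg of lipopolysaccharide, a bacterial cell wall product from E. coli O55:B5, by the same route and for the same 48 hours. The LPS+RT group received the lipopolysaccharide and the same dose of X-rays on the same schedule. All 4 samples passed a Ficoll gradient of density 1.084 that enriches mononuclear cells, so the cells counted are not the lung's own mixture.

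Nucleosomes are built from the core histones H2A, H2B, H3 and H4, and the linker histone H1 binds the DNA between them. Most Hist1h genes are replication-dependent: their transcription and the stability of their mRNA are tied to S phase, when new DNA has to be packed. Their mRNAs usually end in a short stem-loop, bound by the stem-loop binding protein SLBP, in place of a poly(A) tail, although some members can also give polyadenylated transcripts. The sequencing kit primes on poly(A), so a UMI (a counted mRNA molecule) of such a gene stands for a transcript, or a stretch of one, that oligo(dT) could prime. Mki67 encodes the proliferation antigen Ki-67 and Top2a the topoisomerase that untangles DNA in dividing cells, and cells with at least 1 UMI of both were compared with cells with neither.

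The quality filters left 8909 PBS cells, 6243 PBS+RT cells, 8958 LPS cells and 9669 LPS+RT cells, and the median cell held 4294, 8591, 5554 and 4288 UMIs in that order. The 4 libraries hold between 60941465 and 75642592 UMIs in these cells. Cells fell into 49 clusters. Marker genes gave names to 18 cell classes, among them endothelial-like, alveolar macrophage-like, alveolar type 1-like and type 2-like cells, as a lung should hold, while 5 clusters with 10.5 to 18.6% of a library's cells stayed unnamed. With 1 library per group there is no replicate and no test between groups. Levels are CPM (UMIs of a gene per 1000000 UMIs of the same cells), and the 95% intervals printed with ratios, levels and shares are exact and cover counting error only. Differences between libraries are therefore differences between 4 libraries, and treatment cannot be told apart from the mice and the preparation.

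Of the 54 members, 35 had at least 100 UMIs over the 4 libraries, 17 had 1 to 99, and 2 had none: Hist1h4m and Hist1h2ba. The members held 133008 UMIs together. The 6 H1 genes carried 43.3% of them, the 15 H2B genes 29.0%, the 11 H4 genes 19.2%, the 13 H2A genes 5.16% and the 9 H3 genes 3.35%. Few genes made up most of this RNA: Hist1h2bc had 32209 UMIs in 13162 cells, Hist1h1e 24499 in 10030 cells, Hist1h1c 22209 in 10684 cells and Hist1h4d 15483 in 8365 cells. Hist1h1b was spread differently, with 8079 UMIs in only 885 cells and up to 256 UMIs in 1 cell. Hist1h3c had 1114 UMIs in 260 cells. The testis-type members were at or near 0, with 10 UMIs for Hist1h1t, 1 for Hist1h2aa and 0 for Hist1h2ba. Several members are near-identical copies of each other, so how reads were shared among such copies in the counting makes values of single core histone genes uncertain.

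The stem-loop was searched in the annotated transcripts as 6 paired bases, a loop of 4 and the 6 pairing bases, after the stop codon. It was found in 37 of the 54 members. For scale, 593 of 58797 protein-coding transcripts of the GENCODE M21 annotation hold it in their last 1500 bases (1.009%). That count is per transcript and takes in coding bases and the members themselves, so the 2 shares are not counted alike. The forms are shown because they are the shared 3′ feature of the family, and the capitals mark the stem. The form of 20 members is followed by that of Hist1h3c, which 6 members share, and by that of Hist1h4i, which it alone has.
Form of 20 members: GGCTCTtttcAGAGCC
Hist1h3c, chr13:23745047-23745062, minus strand: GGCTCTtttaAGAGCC
Hist1h4i, chr13:22040966-22040981, minus strand: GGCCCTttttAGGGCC
In Hist1h1e the annotated transcript goes on for 1153 bases after the stem-loop, in Hist1h1c for 840, in Hist1h4i for 330, in Hist1h2ae for 151 and in Hist1h3c for 74. No such form was found in Hist1h1b, whose annotated model ends at the stop codon, or in Hist1h2bc, a gene of 2 exons with 742 annotated bases after the stop. The models of Hist1h3i, Hist1h2ak, Hist1h2ai and other members without a form also end at the stop codon. There the search could not find a stem-loop, so these members are not shown to lack it.

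Promoters were read from RefSeq (GRCm38.p6), from 250 bases before to 50 after the start, and 49 of the 54 members had an entry. The letters CCAAT, searched on both strands, stood in 83.7% of them against 37.4% of all 32851 promoters. All 38 promoters of H1, H2A, H2B and H3 genes held them, and 3 of the 11 H4 promoters did. The letters TATAAA stood in 61.2% against 13.6%, and TTTGCAT, the core of the octamer, in 22.4% against 4.63%. Hist1h2bc had no entry. The 150 bases before the start are shown for Hist1h1b and Hist1h3c, which stood high in the cells described below, and for Hist1h1c and Hist1h4i, which stood low. Hist1h2be, with a lower mean ratio than Hist1h1c and Hist1h4i, is not shown. CCAAT and TATAAA, on either strand, are in capitals.
Hist1h1b, chr13:21780626-21780775, minus strand: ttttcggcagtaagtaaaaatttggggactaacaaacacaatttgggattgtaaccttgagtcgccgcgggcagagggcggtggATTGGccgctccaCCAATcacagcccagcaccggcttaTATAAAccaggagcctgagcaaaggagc
Hist1h3c, chr13:23745522-23745671, minus strand: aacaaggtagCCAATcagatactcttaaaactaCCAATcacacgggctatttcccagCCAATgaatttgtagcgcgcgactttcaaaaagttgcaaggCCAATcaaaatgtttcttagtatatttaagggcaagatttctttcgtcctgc
Hist1h1c, chr13:23738657-23738806, plus strand: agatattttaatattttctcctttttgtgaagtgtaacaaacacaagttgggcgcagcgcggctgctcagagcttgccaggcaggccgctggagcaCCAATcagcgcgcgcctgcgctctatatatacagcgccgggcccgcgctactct
Hist1h4i, chr13:22041363-22041512, minus strand: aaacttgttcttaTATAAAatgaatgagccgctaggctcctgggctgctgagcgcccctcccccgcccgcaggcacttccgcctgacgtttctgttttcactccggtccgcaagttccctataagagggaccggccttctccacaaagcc
The H1 and H3 promoters shown carry CCAAT on at least 1 strand, and the H4 promoter of Hist1h4i carries only the TATAAA letters, far from its start. A match is a description of the letters and was not tied to any factor.

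Cells with both Mki67 and Top2a numbered 82 for PBS (0.920%), 33 for PBS+RT (0.529%), 266 for LPS (2.97%) and 195 for LPS+RT (2.02%). They were deep cells, with a median of 26823 to 33520 UMIs against 3883 to 8324.5 in cells with neither. In PBS the summed Hist1h level was 1553 CPM in cells with both and 473 in cells with neither. The levels were 3824 and 399 CPM in PBS+RT, 2015 and 522 in LPS, and 562 and 374 in LPS+RT. Cells with both were thus higher in every library, 3.28-fold for PBS (3.17 to 3.40), 9.59-fold for PBS+RT (9.26 to 9.92), 3.86-fold for LPS (3.78 to 3.94) and 1.504-fold for LPS+RT (1.45 to 1.56). Without Hist1h1c and Hist1h2bc the ratios were 5.84, 16.1, 6.17 and 2.87 in the same order. Cells with both also differ from cells with neither in their mix of classes, and with that mix made equal the ratios were 5.04, 10.25, 6.822 and 2.317. This was done inside each library, and the classes of the cells with both also differ between libraries. Of the 3743 Hist1h UMIs in the 33 PBS+RT cells, 1043 lay in 4 neutrophil-like and 639 in 3 classical monocyte-like cells. Another 602 lay in 2 erythroid-like cells and 566 in 2 cells of the unnamed cluster 27. The PBS+RT ratio thus rests largely on few cells.

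Families differed in how far they went with Mki67 and Top2a. H2A was highest, at 27.9-fold for PBS (25.2 to 30.9), 81.4-fold for PBS+RT (71.4 to 92.9), 16.8-fold for LPS (15.4 to 18.3) and 8.74-fold for LPS+RT (7.72 to 9.90). H3 followed at 10.5, 43.3, 10.7 and 4.54-fold, and H1 at 3.48, 10.8, 4.98 and 2.12-fold. H4 had 2.96, 8.58, 2.61 and 1.32-fold. H2B was the lowest family in every library, at 1.10 for PBS (1.00 to 1.21), 2.25 for PBS+RT (1.98 to 2.54), 0.958 for LPS (0.898 to 1.02) and 0.470 for LPS+RT (0.427 to 0.515), and most of its UMIs were from Hist1h2bc.

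Single members were called higher or lower at a 2-fold difference with at least 30 UMIs on the higher side. In PBS 18 of the 22 members that reached 30 UMIs were higher in cells with both, against 7.0% of all genes, and 0 were lower against 31.6%. In PBS+RT 18 of 19 were higher (7.18% of all genes) and 1 lower (42.7%). In LPS 29 of 34 were higher (8.01%) and 2 lower (25.2%), and in LPS+RT 9 of 20 were higher (7.41%) and 2 lower (36.4%). The median ratio of these members was 25.1, 49.0, 10.6 and 1.48 in PBS, PBS+RT, LPS and LPS+RT, beside 0.813, 0.637, 0.845 and 0.748 over all genes. Members that reached 30 UMIs only in the cells with both had to be high there, so the counts are read beside those of all genes and no further. Among the 20 members with the most UMIs the interval lay above 1 in all 4 libraries for 12 and below 1 in all 4 for 1, Hist1h2bc.

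Among the linker histones, Hist1h1b (H1.5) stood closest to the 2 proliferation genes. Its level in cells with both was 254.7 CPM for PBS, 837.8 for PBS+RT, 569.3 for LPS and 143.1 for LPS+RT, against 2.46, 2.55, 9.41 and 1.95 CPM in cells with neither. These are ratios of 103 (85.5 to 126), 328 (275 to 394), 60.5 (54.8 to 67.0) and 73.3 (59.8 to 90.6). Hist1h1a (H1.1) had ratios of 29.7, 49.0, 24.4 and 10.2 and Hist1h1d (H1.3) of 10.6, 43.8, 10.7 and 4.39. Hist1h1e (H1.4) was abundant in both kinds of cell, with 180.2, 602.8, 361 and 69.3 CPM in cells with both and 84.3, 87.8, 113 and 55.6 in cells with neither, a ratio of 2.14, 6.87, 3.18 and 1.25. Hist1h1c (H1.2) had the lowest ratios of these genes, at 1.14, 3.14, 1.24 and 0.700. In PBS the ratios of these 5 linker genes thus ran from 103 to 1.14.

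Core histone genes covered the same span. Hist1h3c, an H3 gene, had 29.6 CPM for PBS, 226.8 for PBS+RT, 74.2 for LPS and 13.1 for LPS+RT in cells with both, against 0.207, 0.360, 1.12 and 0.0751 in cells with neither. Its ratios were 143, 631 (403 to 1039), 66.2 and 174, the last with 4 UMIs behind the lower level (65.5 to 653). The H3 genes Hist1h3e, with 6.44, 16.6, 4.35 and 2.92-fold, and Hist1h3a, with 3.28, 6.47, 3.10 and 1.04-fold, were lower. Of the H2A genes, Hist1h2ae had 41.2, 94.2, 25.4 and 10.9-fold, Hist1h2ab 65.9, 189, 40.7 and 23.0-fold and Hist1h2ap 45.1, 154, 22.6 and 14.9-fold. Hist1h2ac lay far below them at 2.21, 8.04, 1.91 and 1.41-fold. The H2B gene Hist1h2bj had 37.6, 73.5, 15.6 and 9.26-fold and Hist1h2be 0.954, 2.05, 1.07 and 0.236-fold. Within H2A, H2B and H3, therefore, members differed by more than 10-fold in their ratio.

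Hist1h2bc, an H2B gene and the member with the most UMIs, was lower in cells with both in every library. Its levels were 100.7 against 160.3 CPM for PBS, 29.6 against 100.6 for PBS+RT, 47.4 against 120.1 for LPS and 50.7 against 139.4 for LPS+RT. The ratios were 0.628 (0.551 to 0.714), 0.295 (0.197 to 0.424), 0.395 (0.354 to 0.439) and 0.364 (0.325 to 0.407). Of all its UMIs 3.01% lay in cells with both, against 84.0% for Hist1h1b and 85.6% for Hist1h3c. Over all genes tested 25.2 to 42.7% were at least 2-fold lower in these deep cells, so a ratio of this size is common among genes.

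The H4 genes encode one and the same protein, and their RNA did not move as one. Hist1h4d, the most abundant, had 220 against 71.8 CPM for PBS, 496 against 63.2 for PBS+RT, 205 against 41.5 for LPS and 56.9 against 36.8 for LPS+RT, or 3.07, 7.83, 4.94 and 1.54-fold. Hist1h4h had 3.19, 12.9, 2.55 and 1.39-fold, Hist1h4c 3.22, 10.1, 2.90 and 1.26-fold and Hist1h4n 2.24, 6.75, 2.25 and 2.73-fold. Hist1h4i went either way: 19.1 against 10.4 CPM for PBS (1.84-fold, 1.33 to 2.48) and 21.5 against 4.16 for PBS+RT (5.16-fold, 3.13 to 8.06), but 16.1 against 45.7 for LPS (0.352-fold, 0.291 to 0.422) and 12.3 against 17.2 for LPS+RT (0.716-fold, 0.563 to 0.901). With each cell class given the same weight on both sides the Hist1h4i ratio was 1.559 in LPS and 1.6 in LPS+RT, so its direction there changed with the weighting of the classes.

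**Figure D1:**
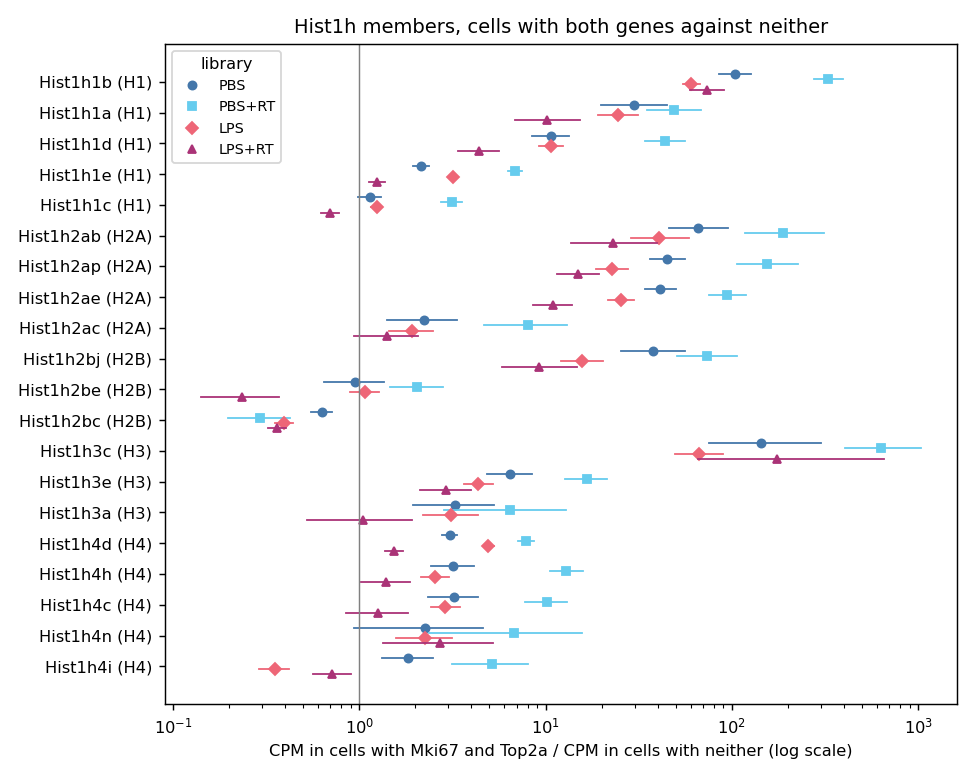
Ratio of the level (CPM) in cells with both Mki67 and Top2a to that in cells with neither, on a log axis, for the 20 members with the most UMIs in each of the 4 libraries, with bars for the 95% counting interval. Hist1h3c, Hist1h1b, Hist1h2ab, Hist1h2ap, Hist1h2ae and Hist1h1a lie above 10 in every library, and Hist1h2bc lies below 1 in every library.

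Members with a long annotated 3′ end tended to the low ratios. Over the 43 members with UMIs on both sides in all 4 libraries, the geometric mean of the 4 ratios had a median of 20.3 for the 23 with at most 100 annotated bases after the stop codon and of 4.25 for the 20 with more. It was above 10 in 19 of the first and 5 of the second. Of the 23, 8 have 0 annotated bases after the stop codon, with a median of 20.9 and all 8 above 10. Their models end at the stop codon, so the annotated length also reflects how complete a model is. Its part in this relation was not tested. Spearman's rho between annotated bases and this ratio was -0.677 over the 43 genes, and that between the genes' UMIs and this ratio was -0.307. Genes of one cluster are not independent and near-copies share reads, so no p is given. Members with a stem-loop were split by the ends of the annotated transcripts that hold it. The 18 with all such ends within 50 bases of it held 7532 UMIs and had a median ratio of 13.8 (2.88 to 61.8, 15 genes with a ratio). Hist1h2bp, among the 18, also has an annotated transcript without the stem-loop, which the split leaves out. The 19 with an end further on held 82424 UMIs and had a median of 3.68 (0.838 to 179, 17 genes). Hist1h3c, with 114 bases after the stop, and Hist1h4i and Hist1h1e, with ends far past the stem-loop printed above, show how wide the second group is.

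**Figure D2:**
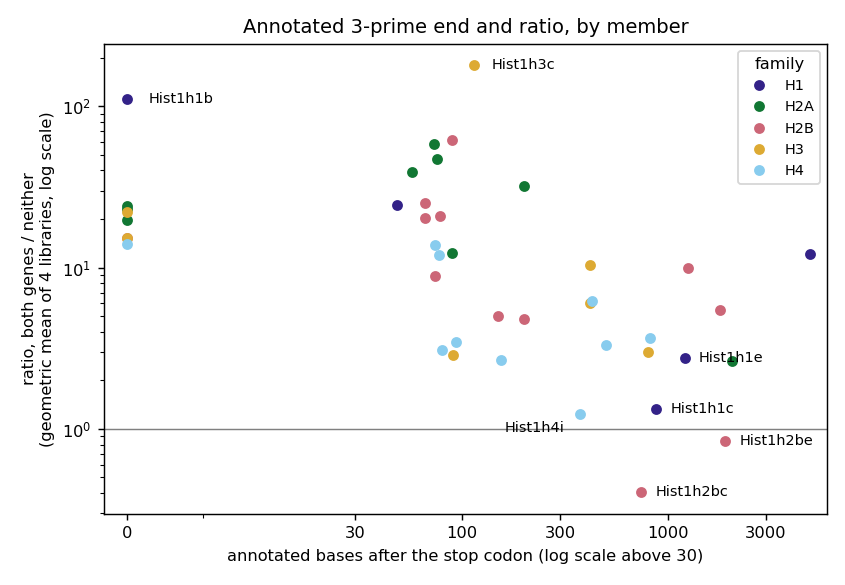
Annotated bases after the stop codon (x axis) against the geometric mean over the 4 libraries of the ratio of cells with both genes to cells with neither (y axis, log scale), 1 point for each of 43 members. Most points above 10 lie at 100 bases or fewer, where 19 of 23 members exceed it.

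Lists of other genes give the scale for these ratios. Of the 41 S phase genes, 36 of 38 tested for PBS, 33 of 35 for PBS+RT, 37 of 41 for LPS and 39 of 41 for LPS+RT were at least 2-fold higher in cells with both, with median ratios of 7.64, 9.60, 8.20 and 9.91. Of the G2 and M phase genes, from which Mki67 and Top2a were left out, 47 of 50, 43 of 45, 46 of 51 and 48 of 51 were higher, with medians of 30.2, 25.7, 17.8 and 19.8. Of the 13 histone genes of the Hist2h, Hist3h and Hist4h clusters, 2 of 7, 2 of 7, 3 of 10 and 2 of 9 were higher, and their medians were 0.612, 0.613, 0.740 and 0.359. Among histone chaperones, which carry histones to DNA, 7 of 8, 6 of 7, 7 of 8 and 5 of 8 were higher. Asf1b, which serves in replicating cells, was the highest of them at 50.9, 42.6, 28.8 and 31.7-fold, and its paralog Asf1a the lowest at 0.866, 1.75, 1.29 and 0.908-fold. Slbp, which binds the histone stem-loop, had 2.64, 2.82, 1.66 and 2.27-fold. Of the replacement histones, made outside S phase from polyadenylated mRNA, H2afz had 4.39, 6.96, 3.34 and 3.24-fold, H3f3b 1.02, 1.13, 0.612 and 0.702-fold and H1f0 0.855, 0.851, 0.908 and 0.523-fold.

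The question whether histone RNA and the 2 genes sit in the same cell was put to each cell. Of all Hist1h1b UMIs 80.4% for PBS, 83.2% for PBS+RT, 83.9% for LPS and 87.5% for LPS+RT came from cells with both, which were at most 2.97% of the cells. Being deep, these cells held 3.94, 1.49, 10.3 and 9.11% of the UMIs of all genes in the same order. In cells with Mki67 alone the Hist1h1b level was 2.74, 2.02, 9.96 and 2.03 CPM in the same order, and in cells with Top2a alone 4.301, 3.77, 58.8 and 3.66. Mki67 alone therefore went with a level near that of cells with neither. With Top2a alone the level was above that of cells with neither in each library, most of all in LPS, but it rested on 9 UMIs in PBS, 10 in PBS+RT and 12 in LPS+RT. In LPS the cells with Mki67 alone were mostly 434 neutrophil-like cells, with 4.98 CPM of Hist1h1b, and 306 cells of the unnamed cluster 16, with 10.9 CPM.

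Cells rich in 1 member show the same contrast between genes. Every cell with at least 10 UMIs of Hist1h1b also held both proliferation genes in PBS (15 of 15), PBS+RT (12 of 12) and LPS+RT (29 of 29), and 65 of 80 did in LPS. For Hist1h4d these counts were 15 of 17, 10 of 14, 43 of 46 and 12 of 12. For Hist1h1e they were 12 of 19, 12 of 35, 51 of 111 and 14 of 19. Cells rich in Hist1h2bc seldom held both, with 7 of 102, 0 of 60, 6 of 57 and 5 of 67. No cell with at least 10 UMIs of Hist1h4i held both, with 0 of 12 in LPS and 0 of 6 in LPS+RT, and PBS and PBS+RT had no such cell. A deep cell shows more UMIs of every gene, so depth enters all of these counts.

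Cells kept the groups set by their Mki67 and Top2a UMIs at full depth, so the grouping itself still depends on depth. For the Hist1h counts, depth was set equal by thinning each cell to 2000 UMIs and leaving out shallower cells. These were 0 to 5 of the cells with both and 1032 to 2979 of those with neither per library. At that depth a UMI of any Hist1h gene was found in 58.75% of cells with both for PBS (47 of 80, 47.2 to 69.6), 66.67% for PBS+RT (22 of 33), 60.54% for LPS (158 of 261, 54.3 to 66.5) and 41.88% for LPS+RT (80 of 191, 34.8 to 49.2). Cells with neither gave 56.50% (3217 of 5694), 51.97% (2509 of 4828), 55.22% (3030 of 5487) and 49.41% (2845 of 5758). In all 4 libraries the interval of cells with both overlapped that of cells with neither (48.1 to 50.7 in LPS+RT), which does not show that the shares are alike. Unthinned, the shares were 95.1, 97.0, 96.2 and 91.8% for both and 72.7, 80.5, 73.4 and 66.5% for neither. Hist1h1b separated the cells: at 2000 UMIs it was found in 20.0% of cells with both for PBS (11.9 to 30.4), 39.4% for PBS+RT (22.9 to 57.9), 29.1% for LPS (23.7 to 35.0) and 13.6% for LPS+RT (9.09 to 19.3), against 0.562, 0.766, 1.53 and 0.469% with neither. Unthinned it was found in 48.8, 60.6, 44.0 and 35.4% against 1.12, 1.52, 3.17 and 0.904%.

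Mature neutrophils do not divide, so the share in neutrophil-like cells with neither gene was set beside the others as a reference for Hist1h1b. The class name also covers markers of immature neutrophils. In LPS 20 of its cells and in PBS+RT 4 held both genes, so the class may hold dividing cells and is not a clean background. At 2000 UMIs neutrophil-like cells with neither gene showed Hist1h1b in 1.67, 0, 0.643 and 0% of cells, where the 2 counts of 0 allow a share of up to 4 and 0.53% (median depth before thinning 4832.5, 5836, 4937 and 3778 UMIs), and any Hist1h UMI in 63.3, 57.3, 55.4 and 61.1%. This reference share is imprecise in PBS, where it rests on 1 of 60 cells (0.0422 to 8.94%), and in PBS+RT. In PBS and PBS+RT the Hist1h1b shares of all cells with neither lie within the interval of this reference and are not read as expression. In LPS the share of 1.53% (1.22 to 1.89) lies above the neutrophil-like share of 0.643% (0.368 to 1.04), and in LPS+RT the share of 0.469% (0.309 to 0.682) lies below the limit that the count of 0 allows. The shares with Top2a alone were 2.48, 2.30, 3.83 and 0.866%, and with Mki67 alone 0, 0.588, 1.70 and 0.449%, where the count of 0 allows up to 1.82%. Hist1h2bc went the other way, with 11.2, 12.1, 8.81 and 8.90% of cells with both and 23.0, 16.4, 18.5 and 21.05% of cells with neither.

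**Figure D3:**
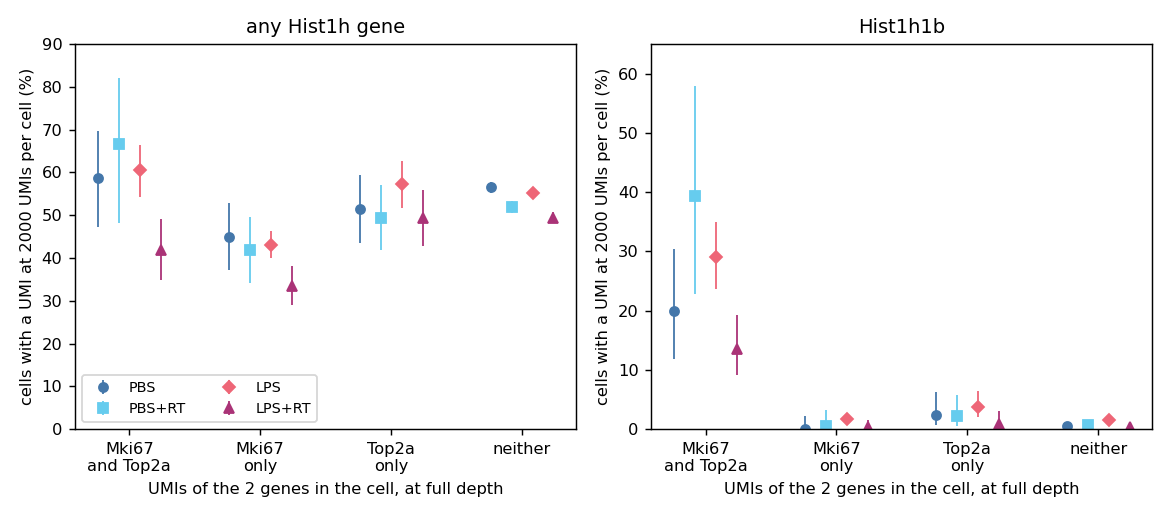
Percent of cells with a UMI of any Hist1h gene and of Hist1h1b after thinning to 2000 UMIs per cell, by library, in cells with both Mki67 and Top2a, with 1 of them or with neither, with exact 95% binomial intervals. For any Hist1h gene the groups lie between 33.5 and 66.67%, and for Hist1h1b only cells with both exceed 10%.

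Among cells with both, the level of Hist1h1b went with that of other members from cell to cell. Spearman's rho between the CPM of Hist1h1b and of Hist1h1e was 0.74 for PBS (82 cells), 0.85 for PBS+RT (33), 0.71 for LPS (266) and 0.79 for LPS+RT (195). With Hist1h3c it was 0.73, 0.82, 0.75 and 0.58, with Top2a 0.65, 0.76, 0.72 and 0.72, and with Mki67 0.61, 0.70, 0.57 and 0.66. With Hist1h2bc it was -0.23, 0.26, 0.0064 and -0.17. Cells of 1 library share preparation and cell classes, and a gene at 0 in many cells ties ranks, so these values are descriptions.

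The contrast was also found inside cell classes. In 21 pairs of class and library with at least 5 cells holding both genes, the summed Hist1h ratio had an interval above 1 in 18, with a median of 5.78. In T cell-like cells of LPS the level was 6500 CPM in 19 cells with both and 410 in 357 with neither, 15.9-fold. NK cell-like cells of LPS had 8722 against 964 CPM (9.04-fold, 12 cells with both), endothelial-like cells 4072 against 488 (8.35-fold, 13 cells), interstitial macrophage-like cells 2924 against 366 (7.998-fold, 32 cells) and neutrophil-like cells 4038 against 634 (6.37-fold, 20 cells). The 3 pairs without such an interval were cluster 16 in LPS (1.09-fold) and LPS+RT (0.716-fold) and dendritic-like cells of PBS+RT (1.10-fold). Hist1h1b had an interval above 1 in all 18 pairs counted for it, with a median of 127, and Hist1h3c in 9 of 9, Hist1h2ae in 12 of 12 and Hist1h2ap in 10 of 10. The pairs left out for Hist1h1b include cluster 16 of LPS+RT and dendritic-like cells of PBS+RT, whose cells with both held 0 UMIs of it. Leaving out such pairs favours high ratios, so these counts are not read as proof for every class. Hist1h2bc had an interval above 1 in 1 of 18 and below 1 in 6. Inside neutrophil-like cells of LPS both Hist1h2bc (64.9 against 208 CPM) and Hist1h4i (58.1 against 120 CPM) were lower in cells with both.

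Most of a class's Hist1h1b RNA could come from a few cells. Of the 358 Hist1h1b UMIs of endothelial-like cells in LPS, 341 lay in the 13 cells with both, of which 6 held any. In neutrophil-like cells of PBS+RT all 168 UMIs lay in 4 cells with both, and in B cell-like cells of PBS 199 of 251 lay in 3 of 4 such cells. The doublet caller marked between 15.3 and 26.4% of simulated doublets as detectable, so cells of mixed type may remain among such cells, and their part in these values was not tested.

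Across classes with at least 100 cells in a library, the members differed in where they were highest. Hist1h2bc had its highest levels in platelet-like cells, with 690 CPM for PBS, 535 for PBS+RT, 481 for LPS and 503 for LPS+RT, and next in alveolar type 1-like cells, with 525, 351, 385 and 453. T cell-like cells had 17.4, 14.2, 10.1 and 15.7 CPM of it. Platelets have no nucleus, and platelet-like cells are shallow, with a median of 1682 to 2412 UMIs. Hist1h4i was highest in neutrophil-like cells of PBS+RT (38.0 CPM), LPS (118) and LPS+RT (159), and in PBS, whose 77 neutrophil-like cells were under the minimum of 100, in platelet-like cells (63.3). In platelet-like cells of PBS+RT it had 37.5 CPM, which does not differ from the neutrophil-like cells beyond counting error. In LPS 29.5% of 3602 neutrophil-like cells held a UMI of it, against 4.21% of platelet-like cells. Hist1h1e was highest in NK cell-like cells, with 394, 320, 525 and 329 CPM, and among the lowest in alveolar macrophage-like cells, with 9.13, 8.14, 63.6 and 8.64.

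Hist1h1b did not have the same leading class in all libraries. In PBS it was highest in B cell-like cells (69.9 CPM), in PBS+RT in neutrophil-like cells (194 CPM), and in LPS, among named classes, in NK cell-like (217 CPM, 200 to 236) and then T cell-like cells (185 CPM, 173 to 198), with interstitial macrophage-like cells at 175 CPM. In LPS+RT NK cell-like (56.1 CPM, 45.7 to 68.2) and T cell-like cells (49.6 CPM, 42.0 to 58.1) had overlapping intervals. In LPS 422 of the UMIs of NK cell-like cells lay in 9 cells with both genes. In T cell-like cells of LPS 799 lay in 11 such cells. The UMIs of 1 cell are not independent, so the intervals do not settle the order of the classes in either library. Unnamed cluster 27, which holds markers of T and innate lymphoid cells, was above all named classes in LPS (341 CPM) and LPS+RT (174 CPM). The shares of cells with a UMI stayed small: in NK cell-like cells 5.73, 10.9, 11.6 and 5.01%, in T cell-like cells 4.10, 4.12, 5.66 and 3.41% and in endothelial-like cells 0.391, 0.773, 2.46 and 0.341%. Summed over the members, the named classes ran from 102 CPM (erythroid-like) to 1305 (platelet-like) for PBS, from 185 (alveolar macrophage-like) to 1530 (neutrophil-like) for PBS+RT, from 371 (nonclassical monocyte-like) to 1618 (NK cell-like) for LPS and from 205 (interstitial macrophage-like) to 980 (platelet-like) for LPS+RT.

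**Figure D4:**
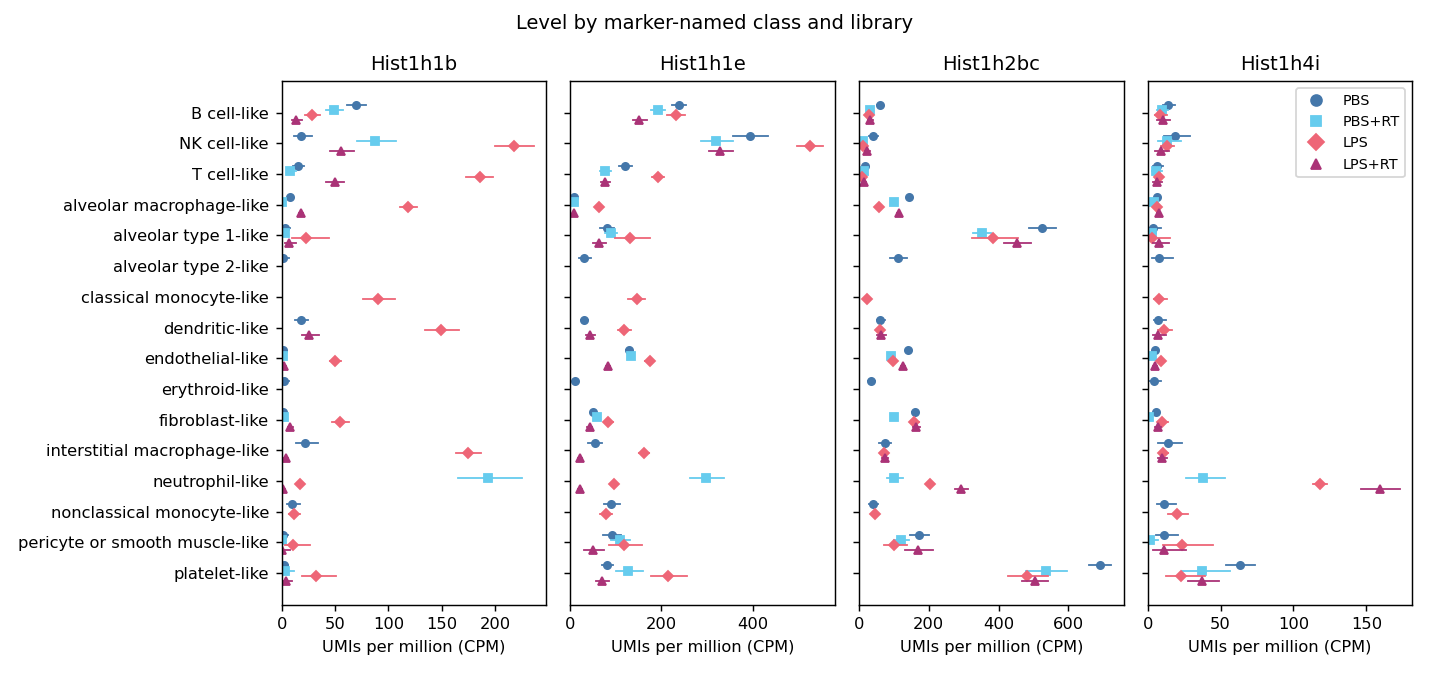
Level in CPM of Hist1h1b, Hist1h1e, Hist1h2bc and Hist1h4i by cell class and library, for classes with at least 100 cells in the library. Hist1h2bc peaks in platelet-like and alveolar type 1-like cells and Hist1h1e in NK cell-like cells. Hist1h4i peaks in neutrophil-like cells of LPS and LPS+RT. In PBS+RT its levels in neutrophil-like and platelet-like cells are close. In PBS, where neutrophil-like cells are too few to be shown, it is highest in platelet-like cells. Hist1h1b is highest among named classes in B cell-like cells in PBS, neutrophil-like cells in PBS+RT and NK cell-like cells in LPS and LPS+RT.

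Between libraries, the summed Hist1h level was compared inside each class. In alveolar macrophage-like cells it was 274 CPM for PBS (641 cells), 185 for PBS+RT (701), 456 for LPS (182) and 230 for LPS+RT (817). LPS stood 1.66-fold above PBS and LPS+RT at 0.504 of LPS. Without Hist1h1c and Hist1h2bc the ratios were 4.55 and 0.194. In T cell-like cells the levels were 467, 414, 1014 and 391 CPM, LPS 2.17-fold above PBS and LPS+RT at 0.386 of LPS. Endothelial-like cells had 561, 505, 634 and 404 CPM, with ratios of 1.13 and 0.637. By these sums LPS was the highest library in the 3 classes, but with each cell weighted equally the endothelial-like ratio of LPS to PBS was 0.9902. Over 12 classes compared, the interval of LPS against PBS lay above 1 in 7 and below in 2, and that of LPS+RT against LPS below 1 in 10 and above in 1. PBS+RT against PBS had an interval below 1 in 7 of 9 classes, and LPS+RT against PBS+RT in 5 of 10, with 2 above. The contrasts with LPS share that library, and those with PBS+RT share that one.

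Counts of members by the 2-fold rule stand beside the percent of all genes called, given in parentheses. In alveolar macrophage-like cells 13 of the 17 members that reached 30 UMIs were higher in LPS than in PBS (7.97%) and 1, Hist1h2bc, lower (8.4%). In LPS+RT against LPS 14 of 17 were lower (4.64%) and 0 higher (3.27%). In T cell-like cells 12 of 23 were higher in LPS than in PBS (8.21%) and 0 lower (2.17%), and 19 of 23 were lower in LPS+RT than in LPS (4.66%) and 0 higher (1.6%). Endothelial-like cells had 5 of 16 higher in LPS than in PBS (7.36%) and 1, Hist1h3a, lower (3.91%), and 8 of 15 lower in LPS+RT than in LPS (6.0%) with 0 higher (2.22%). Among members that reached 30 UMIs, linker and core histone genes alike were thus called higher in LPS, most of all in the alveolar macrophage-like cells. Members that reached 30 UMIs only in the higher library had to be high there. The counts and medians of this and the other contrasts are therefore read beside those of all genes and no further. The median member ratio of LPS to PBS was 2.83 in alveolar macrophage-like, 2.30 in T cell-like and 1.34 in endothelial-like cells, beside 0.983, 1.11 and 0.974 over all genes. For LPS+RT against LPS the medians were 0.205, 0.347 and 0.471, beside 0.955, 0.920 and 0.978.

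The other contrasts called fewer members. In alveolar macrophage-like cells PBS+RT was lower than PBS for 5 of 11 members (3.85%), among them Hist1h1b and Hist1h4d, and higher for 0 (2.56%). For T cell-like cells it was lower for 1 of 9, Hist1h1d (1.87%), and higher for 0 (4.85%), and in endothelial-like cells lower for 0 of 14 (3.08%) and higher for 1, Hist1h1a (5.05%). For LPS+RT against PBS+RT, 6 of 13 members were higher in alveolar macrophage-like cells (7.64%) and 1, Hist1h2be, lower (7.09%). T cell-like cells had 2 of 10 higher, Hist1h1b and Hist1h2ap (2.0%), and 0 lower (2.71%). That Hist1h1b call did not hold with cells named by their own marker score, where its ratio went from 5.945 to 0.928. Endothelial-like cells had 1 of 14 higher, Hist1h1b (2.72%), and 3 lower, Hist1h4h, Hist1h3e and Hist1h4c (3.34%).

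Hist1h1b made the largest difference between LPS and PBS among the 6 most abundant members of each of these 3 classes. Its level in alveolar macrophage-like cells was 8.24 CPM for PBS, 0.469 for PBS+RT, 119 for LPS and 17.9 for LPS+RT, so LPS stood 14.4-fold above PBS (11.96 to 17.5) and LPS+RT at 0.150 of LPS. Among T cell-like cells LPS was 11.99-fold above PBS (8.70 to 16.99) and LPS+RT at 0.268 of LPS. In endothelial-like cells the level was 1.67 CPM in PBS and 50.3 in LPS, 30.1-fold (19.9 to 47.6), and LPS+RT stood at 0.0541 of LPS. Over the named classes the Hist1h1b ratio of LPS to PBS ran from 0.405 in B cell-like cells (0.302 to 0.534) to 52.6 in fibroblast-like cells (26.2 to 124, with 8 UMIs behind the PBS level). Hist1h1e was 6.96-fold higher in LPS than in PBS in alveolar macrophage-like cells (63.6 against 9.13 CPM), 1.59-fold in T cell-like and 1.36-fold in endothelial-like cells. Hist1h2ae was 2.83-fold higher in alveolar macrophage-like and 3.60-fold in T cell-like cells. Hist1h2bc ran the other way, at 0.401 in alveolar macrophage-like cells (57.8 against 144 CPM) and 0.696 in endothelial-like cells, and in LPS+RT it stood at 1.97 and 1.31 of LPS. Hist1h3c had 52 UMIs in endothelial-like cells of LPS and none in those of LPS+RT, at most 0.0395 of the LPS level by the limit of 3 counts.

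Mki67 and Top2a differed between the same libraries in the same classes. Mki67 was 7.06-fold higher in LPS than in PBS in alveolar macrophage-like cells, 7.39-fold in T cell-like and 5.69-fold in endothelial-like cells, and Top2a 3.73, 5.38 and 5.85-fold. In LPS+RT against LPS they stood at 0.342, 0.525 and 0.137 for Mki67 and 0.521, 0.350 and 0.153 for Top2a. Cells with neither gene were therefore compared on their own. In them the summed Hist1h ratio of LPS to PBS was 0.639 in alveolar macrophage-like, 1.06 in T cell-like and 0.888 in endothelial-like cells, and that of LPS+RT to LPS 1.51, 0.688 and 0.816. The direction for LPS against PBS was thus the opposite one in 2 of the 3 classes once cells with either gene were left out. Over the 12 classes the interval of LPS against PBS then lay above 1 in 3 and below in 3, and that of LPS+RT against LPS below 1 in 9 and above in 2. Without Hist1h1c and Hist1h2bc, LPS+RT was below LPS in 11 of 12 classes in cells with neither and in 12 of 12 in all cells.

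**Figure D5:**
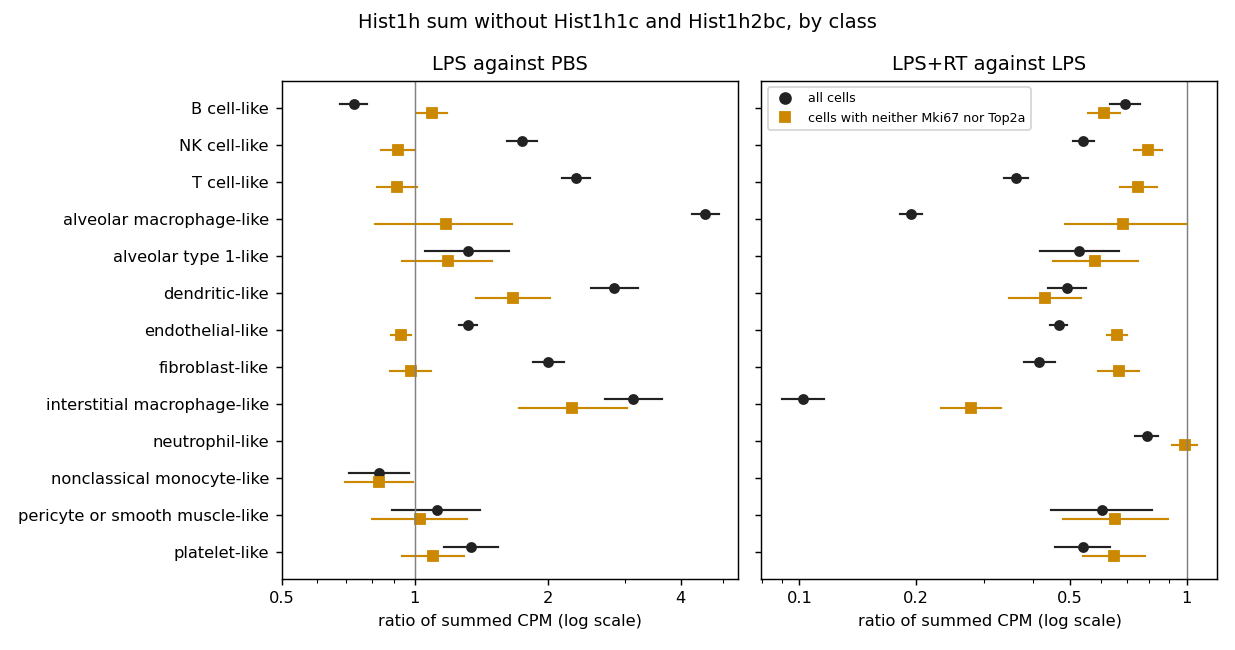
Ratio of the summed level of the Hist1h genes other than Hist1h1c and Hist1h2bc, on a log axis, by cell class for LPS against PBS and for LPS+RT against LPS, in all cells and in cells with neither Mki67 nor Top2a, with 95% counting intervals. In alveolar macrophage-like cells LPS stands 4.55-fold above PBS over all cells and 1.18-fold in cells with neither (0.812 to 1.66).

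Alveolar macrophage-like cells with both genes let the members be compared where Mki67 and Top2a are present in every cell. They were 42 of 641 for PBS (6.55%), 4 of 701 for PBS+RT (0.571%), 72 of 182 for LPS (39.6%) and 147 of 817 for LPS+RT (18.0%). Within them the summed level was 614 CPM for PBS, 195 for PBS+RT, 843 for LPS and 293 for LPS+RT. Hist1h1b had 80.1, 13.03, 263.8 and 71.7 CPM, which made LPS 3.29-fold higher than PBS (2.72 to 4.01) and LPS+RT 0.272 of LPS. The LPS level was carried by few cells: 15 of the 72 were over 500 CPM, against 0 in each of the other libraries, and the median cell was at 0 CPM in all 4. The share of these cells with a Hist1h1b UMI was 47.6% in PBS (20 of 42) and 48.6% in LPS (35 of 72), with 32.7% in LPS+RT (48 of 147). Between LPS+RT and LPS the summed level differed more than the marker genes did, at 0.348 against 0.612 for Mki67 and 0.919 for Top2a. Hist1h2ae stood at 0.650 and Hist1h2bc at 0.488 in LPS against PBS, where Hist1h1e was at 2.61. Over cells with both of all classes, LPS+RT stood at 0.279 of LPS for the summed level, 0.251 for Hist1h1b and 0.176 for Hist1h3c, and at 0.804 for Mki67 and 0.906 for Top2a. Hist1h2bc was at 1.07 (0.920 to 1.25) there. The classes among the cells with both differ between these libraries.

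Cells with both genes were also split by whether their score over 39 S phase genes (the list of 41 without Slbp and Ccne2, which the list of histone mRNA processing and transcription also holds) or over 51 G2 and M phase genes was the higher. This is a range cut in 2 and not a cell type, and 18, 7, 67 and 40 cells lay near the cut in PBS, PBS+RT, LPS and LPS+RT. The score was higher for S phase in 34 of 82, 12 of 33, 159 of 266 and 112 of 195 cells. The summed Hist1h level of these cells relative to the others was 1.01 for PBS, 0.449 for PBS+RT, 0.481 for LPS and 0.428 for LPS+RT. Over all classes the summed level was thus lower on the S phase side in PBS+RT, LPS and LPS+RT. In PBS it was not higher there by more than counting error. The mix of classes on the 2 sides was not made equal, and its part in these ratios was not tested. For Hist1h1b alone the ratio was 1.66, 0.755, 0.554 and 0.526 in the same order, so it was higher on the S phase side in PBS. Inside alveolar macrophage-like cells the same ratio was 0.551 in PBS (19 and 23 cells), 2.88 in LPS (50 and 22) and 1.01 in LPS+RT (99 and 48), and for Hist1h1b it was 1.13, 9.66 and 1.21. In these classes and libraries, then, the summed ratio lay on both sides of 1.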

How the data were processed

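Lung cells were profiled with the 10x 3′ kit in 4 libraries. The deposited values are raw UMI counts for each gene and barcode, which the matrix headers, per the file headers, attribute to Cell Ranger 7.0.1. The submitters' processing notes list mm10 as the build and Seurat 4.3.0, R 4.2.2 and Cell Ranger 7 as tools. How multi-mapped reads between near-identical histone copies and intronic reads were handled is not given in the sources used here. Barcodes shared between libraries were not analysed here.

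Cells (scanpy 1.11.5, Python 3.11.15) needed 500 UMIs and 200 genes, and no more than 10% of their UMIs could be mitochondrial. Scrublet, with an expected rate of 8%, removed 130, 102, 181 and 248 doublets from PBS, PBS+RT, LPS and LPS+RT, where 15.3, 26.4, 19.8 and 21.3% of simulated doublets were detectable. Cells were clustered without histone and cell cycle genes (2000 variable genes, 30 components, 15 neighbors, Leiden resolution 1.5). A name needed 3 markers at 2-fold and in 10% of cells, thresholds set after the clusters were seen. UMIs were summed per class and library. Ratios have exact conditional binomial intervals, shares Clopper-Pearson intervals and levels Poisson intervals at 95%, with a floor of 3 counts. The procedure was tested on simulated data. Members named are the 20 with the most UMIs, and in class contrasts at most 6 with at least 30 UMIs. Other members, Hist1h3a and Hist1h3c in class contrasts included, were named after their values were seen. Outside the family the rule names Mki67, Top2a, Slbp, H2afz, H3f3b and H1f0 and the highest and lowest of each list. The members and lists were chosen with earlier results of these data known. Alternatives were other depths of thinning, quality limits, scalings, weightings, naming and clustering.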

Additional observations from a re-analysis of the deposited data

Results flagged for a closer look

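These pairs of ratios lie on opposite sides of 1. The differences within the pairs were not tested, since each group is 1 library. In NK cell-like cells the summed Hist1h level had a ratio of 1.72 for LPS against PBS and of 0.885 for LPS+RT against PBS+RT. In endothelial-like cells these ratios were 1.13 and 0.800. For LPS against PBS, B cell-like cells had 0.787 and interstitial macrophage-like cells 2.17. For LPS+RT against LPS, interstitial macrophage-like cells had 0.255 and neutrophil-like cells 1.07. For LPS+RT against PBS+RT, neutrophil-like cells had 0.484, with 112 of these cells in PBS+RT, and alveolar macrophage-like cells 1.24.

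Among alveolar macrophage-like cells with both Mki67 and Top2a, the summed level of cells with the higher S phase score relative to the others was 0.551 in PBS and 2.88 in LPS. Over all cells with both, this ratio for Hist1h1b was 0.526 in LPS+RT and 1.66 in PBS. For cells with both against neither, Hist1h1c had 0.700 in LPS+RT and 3.14 in PBS+RT, Hist1h4i 0.352 in LPS and 5.16 in PBS+RT, and Hist1h2be 0.236 in LPS+RT and 2.05 in PBS+RT.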

How the results depend on the processing

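No paired analysis was possible because each group is 1 library and no result comes from a test. Where a value moved, the cause was not tested. With 1 library per group the intervals cover counting error only, and the 33 cells with both genes in PBS+RT and classes of few cells limit the precision most. Of 32 values of the summed ratio of cells with both to neither under alternatives, 8 moved by less than their interval and 24 by more, all in the same direction. Of 576 values of members between libraries, 504 stayed within, 62 moved and 10 reversed. Of 497 values of members between cells with both and neither, 359 stayed, 136 moved and 2 reversed. Of 108 sums between libraries 65 stayed, 36 moved and 7 reversed, and of 40 shares 19 stayed and 21 moved. A minimum of 1000 UMIs per cell moved no summed ratio.

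For cells with both against neither, the ratios in PBS, PBS+RT, LPS and LPS+RT were 3.481, 10.04, 4.091 and 1.825 at a mitochondrial limit of 5%, 5.837, 16.13, 6.171 and 2.868 without Hist1h1c and Hist1h2bc, 2.658, 8.2, 3.649 and 1.397 with equal weight per cell, 4.846, 12.57, 5.405 and 1.95 with at least 2 UMIs of each gene, and 5.04, 10.25, 6.822 and 2.317 with classes reweighted. Without doublet removal PBS had 3.115 and LPS 3.73, and without mitochondrial and ribosomal genes in the total PBS+RT had 10.25 and LPS 4.027. Reweighting reversed Hist1h4i in LPS (1.559) and LPS+RT (1.6).

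For the sums inside classes, in the order LPS/PBS, LPS+RT/LPS, PBS+RT/PBS and LPS+RT/PBS+RT, the endothelial-like values were 1.321, 0.4674, 0.9518 and 0.6487 without Hist1h1c and Hist1h2bc, and the alveolar macrophage-like values 4.549, 0.1942, 0.4532 and 1.95. In T cell-like cells this gave 0.7717 for PBS+RT/PBS and 1.086 for LPS+RT/PBS+RT. At a mitochondrial limit of 5% alveolar macrophage-like cells had 1.946 for LPS/PBS and 0.4188 for LPS+RT/LPS, and T cell-like cells 1.038 for LPS+RT/PBS+RT. With equal weight per cell the endothelial-like ratio of LPS/PBS reversed to 0.9902 and LPS+RT/LPS was 0.7484. Alveolar macrophage-like cells then had 1.584, 0.5507 and, for PBS+RT/PBS, 0.7139, and T cell-like cells 1.617, 0.4499 and, for LPS+RT/PBS+RT, 0.7802. Without mitochondrial and ribosomal genes in the total, endothelial-like PBS+RT/PBS was 0.872, alveolar macrophage-like LPS+RT/PBS+RT 1.304, and T cell-like LPS/PBS 2.004 and PBS+RT/PBS 0.7838.

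With cells named by their own marker score, endothelial-like cells had 1.284 and 0.5666 for LPS/PBS and LPS+RT/LPS. T cell-like cells had 0.4718 for LPS+RT/LPS, 1.2 (reversed) for PBS+RT/PBS and 0.8026 for LPS+RT/PBS+RT, where Hist1h1b reversed to 0.928 from 5.945. Clustering with histone and cell cycle genes gave 0.6649 for endothelial-like LPS+RT/LPS and, in T cell-like cells, 0.4682 for LPS+RT/LPS, 1.241 (reversed) for PBS+RT/PBS and 0.8247 for LPS+RT/PBS+RT.

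In cells with neither gene, endothelial-like LPS/PBS reversed to 0.8883 and LPS+RT/LPS was 0.8158. Alveolar macrophage-like cells, of which LPS held few with neither gene, reversed to 0.6385 and 1.512 and had 0.7854 for PBS+RT/PBS. T cell-like cells had 1.055, 0.6885, 1.064 (reversed) and 0.6827. Members that reversed there were, in alveolar macrophage-like cells, Hist1h4d for LPS/PBS (0.8661) and PBS+RT/PBS (1.199) and Hist1h1b for PBS+RT/PBS (1.028) and LPS+RT/PBS+RT (0.5365). In T cell-like cells they were Hist1h1e (0.8677), Hist1h4d (0.7873), Hist1h2ae (0.4576) and Hist1h1d (0.5893) for LPS/PBS and Hist1h1b for LPS+RT/LPS (1.27).

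The share of cells with any Hist1h UMI, in PBS, LPS and LPS+RT, was 45.0, 50.58 and 33.51% in cells with both without Hist1h1c and Hist1h2bc, 46.34, 44.15 and 26.29% at 1000 UMIs per cell and 72.37, 70.36 and 52.41% at 4000. In cells with neither, in PBS, PBS+RT, LPS and LPS+RT, it was 37.78, 35.79, 39.48 and 29.35%, then 39.37, 34.69, 38.48 and 33.16%, and 74.91, 71.41, 72.2 and 68.07%. Expected shares over all draws, an alternative chosen after seeing the data, were 60.12, 69.59, 58.58 and 40.92% with both and 56.67, 52.33, 55.11 and 49.0% with neither.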
